A study of Cynoglossus semilaevis with 24 samples.

Results

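The pituitary of Chinese tongue sole (Cynoglossus semilaevis), a flatfish with female and male genetic sex, was compared here with the brain in 12 of the 24 RNA sequencing libraries of the series, those of the 6 pituitary pools and the 6 brain pools. The 4 groups were female pituitary, male pituitary, female brain and male brain, with 3 libraries each, and the remaining 12 libraries came from liver and gonad. All fish were 2 years old and carried no treatment or allele named in the labels, and each library was made from the tissue of 5 fish mixed before RNA extraction. The study took its organs from 15 females and 15 males, so the 3 pools of a tissue and sex account for all fish of that sex, and pituitary and brain pools came from the same fish. Whether pools with the same number hold the same fish in both tissues is not stated. The labels name the organs as brain and pituitary, with no region or lobe given. With 6 pools per tissue, the p-values measure the spread between pools and not between single fish.

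The pituitary is the gland under the hypothalamus whose hormone cells release growth hormone, prolactin, somatolactin, the gonadotropins, thyrotropin and the peptides cut from pro-opiomelanocortin. In bony fish, nerve fibres from the hypothalamus grow straight into the gland, so that releasing peptides reach the hormone cells at nerve endings. The neurohypophysis, the neural lobe of the gland, also holds the endings of neurons that store vasotocin and isotocin and glial cells called pituicytes. The brain is made of neurons, radial glia, which persist in adult fish, oligodendrocytes that wrap axons in myelin, microglia and blood vessels.

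The depth of the 12 libraries, as the sum of estimated counts, ran from 10032337 to 13513509. Per library, 14754 to 15384 genes reached 1 FPKM (fragments scaled by transcript length and library size) in pituitary and 15948 to 16399 in brain. The 10 most abundant genes took 17.8 to 22.5% of all counts in pituitary pools and 11.4 to 13.4% in brain pools. Some libraries stood apart in the summed level of gene lists for other organs, and the source of this RNA was not tested. For a hepatocyte list it was 460 FPKM in female pituitary 3 against 147 to 228 in the other pituitary pools. Brain pools had 2340 to 4080 FPKM of that list. For an oocyte list it was 187 in male brain 1 against 26.9 to 31.2 in the other brain pools. Male pituitary 3 had the highest summed oocyte level among pituitary pools, 207 FPKM against 48.8 to 150, and the highest summed cell cycle level, 325 against 123 to 167. Without those 3 libraries together 12059 genes were called, and 92% of the calls made with all 12 libraries were kept.

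Pituitary and brain differed in most of the genes measured. Tested were the 17366 genes that reached 1 FPKM in 3 or more of the 12 libraries, and 12849 (74.0%) were called at an edgeR adjusted p under 0.05 in a fit with tissue and sex as terms. Higher in pituitary were 6228 (35.9%) and higher in brain 6621 (38.1%). The larger differences lay more often on the side of the brain: 1072 genes were at least 4-fold higher in pituitary and 2195 in brain, and 215 and 551 were at least 32-fold higher. In FPKM, with no scaling beyond the library total, the 6 pools of one tissue lay wholly apart from the 6 of the other in 8814 genes (50.8%). Pituitary was above in 3125 (18.0%) and brain above in 5689 (32.8%). Not all of these genes were called: LOC103396748 had brain above with a log2 difference of -0.13 (edgeR adjusted p = 0.07). The first principal component of the 12 libraries, with 78.4% of the variance, separated the tissues, and the second, with 12%, separated the sexes.

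The split of the calls depended on scaling. With TMM scaling, which is used throughout, 48.5% of called genes were higher in pituitary and the median log2 difference over all tested genes was -0.01. With no scaling beyond the library total 38.5% were higher in pituitary and that median was -0.20, and with limma on log2(FPKM + 0.1) or log2(FPKM + 1) the shares were 38.3% and 38.5% and the medians -0.20 and -0.17. Differences below are on the TMM scale, while levels in FPKM carry no such scaling, so a fold and the ratio of 2 levels can differ. A gene was said to mark a tissue when it was called, at least 4-fold higher there in each sex, and above the other tissue in all 6 pools. The last condition used FPKM, as did the counts of genes without overlap, so neither carries TMM scaling. By that rule 875 genes (5.04%) marked pituitary and 1878 (10.8%) marked brain. Counts of called and marking members in the gene lists below are to be read beside these shares. For calls, the shares over all tested genes were 35.9% higher in pituitary and 38.1% higher in brain.

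Among genes that mark pituitary, the 4 with the highest mean level there were the hormone genes gh1, LOC103393769, lhb and cga. Of 14 hormone genes listed, 11 were tested and 10 were higher in pituitary, all 10 of them marking it, while 1 was not called; the median log2 difference of the 11 was 10.14. The summed level of the list was 131000 to 174000 FPKM in the 6 pituitary pools and 120 to 204 FPKM in the 6 brain pools.

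Growth hormone (gh1) drives body growth through the liver and other organs. Its level was 64300, 90320 and 98170 FPKM in female pituitaries and 21540, 26340 and 14990 FPKM in male pituitaries, against 36.8, 36.7 and 49.2 FPKM in female brains and 36.95, 54.6 and 39.5 FPKM in male brains. Every pituitary pool lay far above every brain pool, and the female pools were the highest. The log2 difference was 10.15 (SE 0.53, edgeR adjusted p = 1.17e-08), a 1135-fold difference, and it was larger in females than in males, 11.20 against 9.11.

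The gonadotropin beta subunit lhb, a part of luteinizing hormone, ranged in pituitary from 22460 to 33380 FPKM with a median of 32110, and in brain from 22.3 to 39.2 FPKM with a median of 25.8. The log2 difference was 10.28 (SE 0.17, edgeR adjusted p = 5.66e-16). The alpha subunit cga, shared by the gonadotropins and thyrotropin, had 14160 to 26060 FPKM in pituitary (median 22480) and 14.4 to 27.6 FPKM in brain (median 17.9). Both genes had no overlap between the tissues and similar differences in the 2 sexes, 10.19 in females and 10.44 in males for cga. The thyrotropin beta subunit tshba was less abundant and more spread, with 1028 to 4071 FPKM in pituitary (median 1738) and 1.99 to 3.43 FPKM in brain (median 2.07).

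Pro-opiomelanocortin is the precursor of corticotropin and melanocyte-stimulating hormone, and 3 genes of that name were tested. The main one, LOC103393769, had 18770 to 49070 FPKM in pituitary (median 24780) and 24.2 to 37.1 FPKM in brain (median 27.9). LOC103389827 had 2667 to 3836 FPKM in pituitary (median 3143) and 3.87 to 11.95 FPKM in brain (median 5.81). LOC103380837 had 1339 to 4154 FPKM in pituitary (median 2055) and 1.85 to 5.61 FPKM in brain (median 3.08). The folds were 1125, 513 and 819 in that order, and reads shared between the copies could have been split in the counting. The 2 hormones of the prolactin family, smtla (somatolactin) and prl (prolactin), had medians of 9131 and 6034 FPKM in pituitary and 7.24 and 3.94 FPKM in brain, with log2 differences of 10.34 (SE 0.27) and 10.45 (SE 0.25). Prolactin ranged from 3552 to 7278 FPKM among pituitary pools, and male pituitary 2 was the lowest.

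The glycoprotein hormone beta-5 gene gphb5 was low in both tissues, at 2.33 to 14.2 FPKM in pituitary and at 0 in 5 of the 6 brain pools, where 1 count was recorded in all. Its copy LOC103384160 was the one hormone gene not called, with medians of 0.535 FPKM in pituitary and 0.985 FPKM in brain (log2 difference -0.86, SE 0.54, edgeR adjusted p = 0.159).

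**Figure D1:**
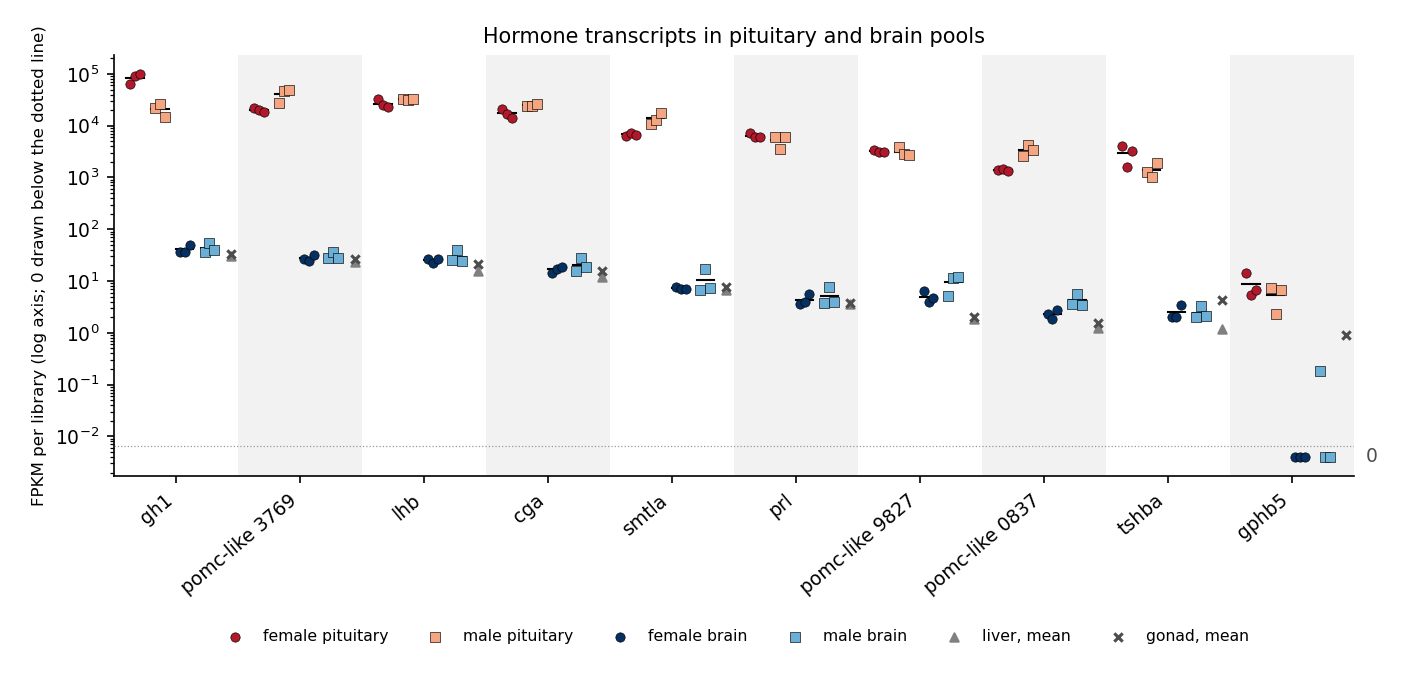
Levels of 10 hormone genes in FPKM on a log axis, each point 1 pool, short lines the mean of 3 pools where none was 0, with liver and gonad means beside them; pomc-like genes carry the last 4 digits of their identifiers (LOC103393769, LOC103389827, LOC103380837). Pituitary pools lie above brain pools in all 10 genes, and for the 9 most abundant the brain mean is 0.0804 to 0.23% of the pituitary mean.

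Low levels of the hormone transcripts were also counted in liver and gonad. A pituitary mean of at least 1000 FPKM was reached by 11 genes that mark the gland: the 9 abundant hormone genes, the granule gene scg3 and LOC103397625, named like a corticotropin-releasing factor-binding protein. Their mean level in brain was 0.0804 to 0.592% of that in pituitary (median 0.0957%), in liver 0.0514 to 0.116% (median 0.0581%) and in gonad 0.0635 to 0.2% (median 0.0716%). For gh1 the level was 36.7 to 54.6 FPKM in brain pools, 30.2 to 31.1 FPKM in liver pools and 28.9 to 41.7 FPKM in gonad pools. The highest shares in brain were those of scg3, 0.592%, LOC103397625, 0.328%, and LOC103389827, 0.23%. For LOC103389827 the brain pools, at 3.87 to 11.95 FPKM, lay above the liver pools, at 1.66 to 2.09 FPKM, and the gonad pools, at 1.49 to 2.59 FPKM. In gonad the highest share was that of tshba, 0.2%, with means of 7.09 FPKM in testis and 1.62 FPKM in ovary. The source of these low levels was not tested, and the hormone folds above depend on the level in brain. Large folds below also depend on it where a gene was under 1 FPKM in brain, as for pitx1, pou1f1 and LOC103389645.

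Transcription factors that build the gland followed the hormones. Of 29 listed, 25 were tested, 16 were higher in pituitary, 8 in brain and 1 was not called, with a median log2 difference of 3.56; 14 marked pituitary and 3 marked brain. The list holds factors that also act in the hypothalamus and in neural stem cells.

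The early factors of the gland are the homeobox gene pitx1, which is on early across the gland in mouse, and the LIM homeobox genes lhx3 and lhx4. For pitx1 the 6 pituitary pools had 245.5 to 401.9 FPKM (median 339.8) and the brain pools 0.08 to 0.97 FPKM (median 0.335). The log2 difference was 9.90 (SE 0.24, edgeR adjusted p = 5.92e-14). Its relative pitx3 was low but called higher in pituitary, with medians of 2.43 FPKM in pituitary and 0 FPKM in brain.

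For lhx3 the medians were 34.3 FPKM in pituitary and 0.07 FPKM in brain, and for lhx4 35.5 and 0.54 FPKM, which gave 362-fold and 69.3-fold differences. The transcriptional cofactor eya1, which acts in the placodes, had medians of 50.3 FPKM in pituitary and 3.29 FPKM in brain. No pool of one tissue reached into the range of the other for any of these 3 genes.

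Factors known for single hormone cell types differed in direction. The gene pou1f1, needed in mouse for growth hormone, prolactin and thyrotropin cells, had 50.5 to 267.7 FPKM in pituitary (median 134.3) and 0 to 0.48 FPKM in brain (median 0.075). The log2 difference was 9.99 (SE 0.30, edgeR adjusted p = 9.64e-13).

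For tbx19, the T-box factor of pro-opiomelanocortin cells, the medians were 22.1 FPKM in pituitary and 0.1 FPKM in brain, a 205.8-fold difference that was nearly the same in females and males (log2 7.68 and 7.69). For pax7, which directs intermediate lobe cells in mouse, they were 30.8 and 2.99 FPKM, an 11.8-fold difference. Another Pax-7-like gene, LOC103384843, ran the other way: it had no count in any pituitary pool and 1.5 to 2.17 FPKM in brain pools, at least 73.4-fold lower in pituitary when the floor is 3 counts over the 6 pools. The zinc finger gene gata2a, whose relatives act in gonadotropin and thyrotropin cells, had medians of 21.0 and 3.62 FPKM. Its copy gata2 was higher in brain (medians 0.705 FPKM in pituitary and 1.52 FPKM in brain), a call that ended without female brain 1 and in females alone. The gene egr1, which acts in gonadotropin cells in mouse, was not called (log2 difference -0.52, edgeR adjusted p = 0.335). An egr1-like gene, LOC103395765, was called 2.62-fold higher in pituitary (edgeR adjusted p = 0.00116). Its pools overlapped, with 4.28 to 46.7 FPKM in pituitary and 3 to 12.5 FPKM in brain.

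Factors of neuroendocrine cells included insm1b and isl1a, both higher in pituitary. The zinc finger gene insm1b had medians of 98.9 FPKM in pituitary and 3.99 FPKM in brain (31.7-fold), and the LIM homeobox gene isl1a 43.5 and 2.59 FPKM (20.3-fold). The other insm1 copy, insm1a, was higher in brain, with medians of 0.45 FPKM in pituitary and 1.16 FPKM in brain. The stem cell factors sox3 and sox2 were higher in brain, sox3 4.11-fold (medians 5.83 and 27.8 FPKM) and sox2 1.33-fold (24.5 and 36.1 FPKM). The sox2 call ended in males alone. The forkhead gene foxl2 was 4.02-fold higher in brain, with medians of 1.09 FPKM in pituitary and 4.86 FPKM in brain.

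**Figure D2:**
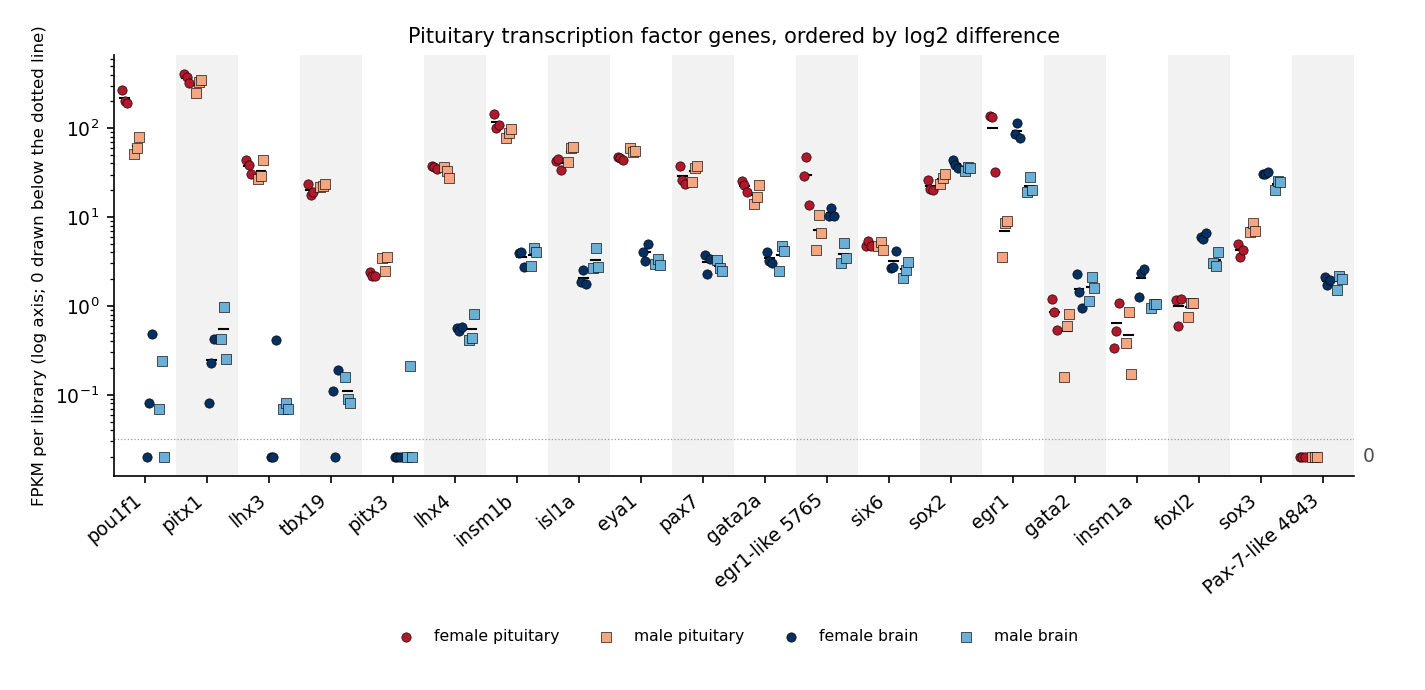
Levels of 20 of the 25 tested pituitary transcription factor genes in FPKM on a log axis, 1 point per pool, ordered from the largest to the smallest log2 difference; labels with 4 digits end the identifiers LOC103395765 and LOC103384843. The 6 leftmost genes have brain medians of at most 0.54 FPKM, and Pax-7-like LOC103384843 is at 0 in all 6 pituitary pools.

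A nuclear receptor gene outside that list stood beside pitx1 in size. LOC103389645, named as a member 2 of nuclear receptor subfamily 5 group A, had 249.8 to 311.8 FPKM in pituitary (median 272.5) and 0.14 to 0.6 FPKM in brain (median 0.245). The log2 difference was 10.10 (SE 0.17, edgeR adjusted p = 5.15e-16), with a narrow range in pituitary. Levels were similarly low in liver pools, at 0.16 to 0.21 FPKM, and in gonad pools, at 0.12 to 0.24 FPKM. Receptors of this subfamily bind DNA as monomers and act in steroid-making and gonadotropin cells in mammals.

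Receptors for hypothalamic and feedback signals did not move one way. Of 58 listed, 42 were tested, 20 were higher in pituitary, 16 in brain and 6 were not called. Over all tested genes 35.9% were higher in pituitary and 38.1% in brain, so the brain share of the list was near that of all genes. The median log2 difference was 0.24, against -0.01 over all genes. Of the 42, 6 marked pituitary and 5 marked brain. Several receptors were split by gene copy.

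The estrogen receptor alpha gene esr1 had 258.5 to 600.1 FPKM in pituitary (median 382.7) and 1.04 to 1.51 FPKM in brain (median 1.33), with a log2 difference of 8.44 (SE 0.19, edgeR adjusted p = 2.32e-14). It was the most abundant receptor of the list and did not overlap between tissues. The beta receptor esr2a was 5.09-fold higher in pituitary, with medians of 30.3 and 6.81 FPKM. The progesterone receptor-like gene LOC103391230 was 5.41-fold higher, with medians of 9.01 FPKM in pituitary and 1.79 FPKM in brain.

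Somatostatin from the hypothalamus holds back growth hormone release. The somatostatin receptor type 5-like gene LOC103392947 had medians of 123.3 FPKM in pituitary and 0.295 FPKM in brain, a 383-fold difference. Another type 5-like gene, LOC103392561, was 52.1-fold higher in brain, with medians of 0.1 and 6.98 FPKM. Gonadotropin-releasing hormone receptors showed the same kind of split: LOC103379388 was 93.3-fold higher in pituitary (medians 11.2 and 0.125 FPKM), while gnrhr1, gnrhr4, LOC103379237 and LOC103388047 were higher in brain.

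Among the other receptors of releasing peptides, the dopamine D2 receptor drd2 was 3.76-fold higher in pituitary (medians 34.3 and 9.81 FPKM) and the corticotropin-releasing factor receptor crhr1 3.19-fold (14.4 and 5.48 FPKM). The thyrotropin-releasing hormone receptor trhrb was 2.40-fold higher, though its pools overlapped at 4.37 to 13.7 FPKM in pituitary and 3.91 to 5.26 FPKM in brain. The PACAP receptor adcyap1r1a was 40.8-fold higher in brain (medians 0.8 and 37.3 FPKM), ghrhrb 43.5-fold (0.42 and 19.6 FPKM) and the galanin receptor galr2b 60.6-fold (0 and 6.11 FPKM). PACAP is a peptide that raises cyclic AMP in its target cells. The leptin receptor lepr, which reports on body fat in mammals, was 8.72-fold higher in pituitary (medians 36.9 and 3.73 FPKM).

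Genes that pack and cut prohormones were mostly higher in pituitary. Of 27 listed, 26 were tested, 20 were higher in pituitary, 4 in brain and 2 were not called, with a median log2 difference of 1.74; 9 marked pituitary and 2 marked brain. Their summed level was 17800 to 23600 FPKM in pituitary pools and 1790 to 2100 FPKM in brain pools.

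Secretogranin-3, which holds hormone aggregates at the granule membrane, led the list. The scg3 gene had 11570 to 16680 FPKM in pituitary (median 13740) and 78.7 to 86.3 FPKM in brain (median 81.9), with a log2 difference of 7.58 (SE 0.11, edgeR adjusted p = 7.72e-17). It was the single most abundant gene by count in male pituitary 1 and male pituitary 2. Chromogranin A (chga), which promotes granule formation, had medians of 913.6 and 127.5 FPKM, an 8.17-fold difference, and secretogranin-2 (scg2) 284.6 and 77.2 FPKM, 4.18-fold. The chgb gene, secretogranin-1, ran the other way with 0 to 0.96 FPKM in pituitary (median 0.215) and 48.3 to 91.3 FPKM in brain (median 62.6), a log2 difference of -7.66 (SE 0.44, edgeR adjusted p = 1.06e-08). The copy scg2b was 1.27-fold higher in pituitary with overlapping pools (medians 249.1 and 228.7 FPKM). Its log2 difference was 0.14 in females and 0.56 in males. That call ended in females alone, with no scaling beyond the library total, with limma on either FPKM scale and with a least difference of 2-fold.

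The prohormone convertases pcsk2 and pcsk1 were 7.09-fold and 3.50-fold higher in pituitary, with medians of 307.1 and 158.3 FPKM there and 50.4 and 52.1 FPKM in brain. Their partner proteins scg5 (7B2) and pcsk1nl were 6.07-fold and 4.97-fold higher. Carboxypeptidase E (cpe), which trims the cut ends, was abundant in both, with medians of 791 and 463.4 FPKM, and 2.01-fold higher in pituitary. The amidating enzyme pam was 3.41-fold higher. Medians of the calcium-binding secretagogin-like gene LOC103388328 were 302.5 FPKM in pituitary and 11.3 FPKM in brain, and those of nucleobindin-2 (nucb2) 577.2 and 30 FPKM.

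The granule membrane proteins ptprna and LOC103389235 were 6.48-fold and 9.54-fold higher in pituitary. Their relative ptprn2 was only 1.48-fold higher there, and LOC103396748, a phosphatase N2-like gene, was not called and had all brain pools above all pituitary pools. The priming factor cadps was 3.00-fold higher in brain, while its copy LOC103386620 was 4.17-fold higher in pituitary. The neurosecretory gene vgf and its copy LOC103395132 were 3.19-fold and 5.998-fold higher in brain. Another pair, cadps2 and LOC103379883, had similar names and levels, with medians of 4.32 FPKM each in pituitary and 1.88 and 1.855 FPKM in brain. They may share reads, which was not tested.

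The machinery that folds and exports secreted proteins was higher in pituitary nearly throughout. Of 57 genes listed for the endoplasmic reticulum, 54 were tested, 51 were higher in pituitary, 1 was higher in brain and 2 were not called, with a median log2 difference of 1.74; 20 marked pituitary. The summed level was 6380 to 7100 FPKM in pituitary pools and 1940 to 2070 FPKM in brain pools. The chaperone hspa5 (BiP), which holds unfolded proteins, had 322.3 to 482.1 FPKM in pituitary (median 375.1) and 65.5 to 92.8 FPKM in brain (median 80.0), 5.41-fold higher in pituitary. The disulfide isomerase p4hb had medians of 624.1 and 125.4 FPKM (5.89-fold), the calreticulin-like lectin LOC103399827 637.9 and 131.8 FPKM (5.94-fold), pdia3 567.3 and 161.5 FPKM (4.14-fold) and calnexin (canx) 466.4 and 226.8 FPKM (2.35-fold). The largest difference was that of the co-chaperone dnajc3, with medians of 68.6 FPKM in pituitary and 2.91 FPKM in brain (26.2-fold). Next came a translocon-associated alpha subunit, LOC103386010, with 93.2 and 4.41 FPKM (22.4-fold). The stress sensor ern1 was 4.95-fold and its target xbp1 2.50-fold higher in pituitary. For xbp1, a gene of chromosome Z, the 3 female pituitary pools at 150.2 to 191.9 FPKM overlapped with the 3 male brain pools at 156.9 to 200.2 FPKM. The one gene higher in brain was calr, another calreticulin copy, with medians of 14.1 FPKM in pituitary and 35.9 FPKM in brain.

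Some of the genes with the largest differences or levels on the side of the pituitary belong to none of the lists. The gene named like a corticotropin-releasing factor-binding protein, LOC103397625, whose relatives bind that peptide outside cells, had 2337 to 7259 FPKM in pituitary (median 4342) and 9.89 to 18.9 FPKM in brain (median 16.4). Its log2 difference was 8.32 (SE 0.22, edgeR adjusted p = 3.85e-13), and the male pituitary pools, at 5908 to 7259 FPKM, lay above the female ones, at 2337 to 2776 FPKM. The epithelial adhesion gene epcam had 747.6 to 1104 FPKM in pituitary (median 914.9) and 8.72 to 24.2 FPKM in brain (median 12.8), a 71.9-fold difference.

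A metalloprotease named low choriolytic enzyme-like, LOC103381002, had medians of 161.4 and 0.145 FPKM in pituitary and brain. Choriolytic enzymes are known from fish hatching glands, where they digest the egg envelope. The carbonic anhydrase 4-like gene ca4c had medians of 49.7 and 0.04 FPKM, the galactosyltransferase-like gene LOC103379671 197.8 and 0.245 FPKM, and the kinase-like gene LOC103397927, on chromosome Z, 293.8 and 0.43 FPKM. All 4 lacked overlap between the tissues, with folds of 708.1 for ca4c, 845.9 for LOC103397927, 924.2 for LOC103379671 and 1177 for LOC103381002. Their brain means were 0.0882 to 0.133% of the pituitary means, so these folds too depend on very low levels in brain.

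An interferon-inducible protein 27-like gene, LOC103385454, was abundant in both tissues, with medians of 2825 FPKM in pituitary and 667 FPKM in brain. It was 4.23-fold higher in pituitary over both sexes but 3.33-fold in females, so it did not meet the 4-fold rule for a mark. The female value is from the fit of both sexes with a sex by tissue term, which the rule uses.

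Neuropeptide precursors, the signals that hypothalamic neurons send to the gland and to other neurons, were mostly low in pituitary. Of 50 listed, 37 were tested, 6 were higher in pituitary, 27 in brain and 4 were not called, with a median log2 difference of -5.05, or -4.96 with the 5 genes that had no pituitary count set at the bound for 3 counts. Of these 37, 5 marked pituitary and 22 marked brain.

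The isotocin gene LOC103397660, the fish form of oxytocin, had 8.24, 1.27 and 3.75 FPKM in female pituitaries and 2.6, 1.89 and 24.3 FPKM in male pituitaries, against 2082, 1574 and 775.6 FPKM in female brains and 925.8, 899.8 and 1196 FPKM in male brains. Male pituitary 3 was the highest pituitary pool and still far below every brain pool. The log2 difference was -7.29 (SE 0.70, edgeR adjusted p = 3.84e-06). The vasotocin gene avp had 0.47 to 2.85 FPKM in pituitary (median 1.51) and 150.8 to 585.5 FPKM in brain (median 354.5), 209.1-fold higher in brain. In bulk tissue a different number of cells of a type and a different amount of RNA per cell cannot be told apart. This holds here and in all comparisons above and below.

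The PACAP gene adcyap1b had 0.09 to 0.62 FPKM in pituitary (median 0.205) and 133.1 to 199.4 FPKM in brain (median 166.4), a log2 difference of -9.15 (SE 0.19, edgeR adjusted p = 3.34e-15). Cholecystokinin (cck) had medians of 1.35 and 166 FPKM, and female pituitary 1 stood above the other pituitary pools at 13.8 FPKM. Corticoliberin (crh), the peptide that releases corticotropin, had medians of 1.19 and 14.8 FPKM, 10.9-fold higher in brain.

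Some neuropeptide genes had next to no counts in pituitary. Galanin (gal) and thyrotropin-releasing hormone (trh) had 3 counts each over the 6 pituitary pools and medians of 31.4 and 29.0 FPKM in brain. Neuropeptide Y (npy) and somatostatin-1 (sst1.1) had no count in pituitary and medians of 9.01 and 13.9 FPKM in brain, at least 130-fold and 82.3-fold lower in pituitary with a floor of 3 counts over the 6 pools.

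The 6 genes higher in pituitary were penk, grp, nms, agrp, the protachykinin-like gene LOC103388335 and stc1l. The last is named like stanniocalcin, a calcium-lowering hormone of fish and not a neuropeptide precursor, but it is counted in the list. It had medians of 0.965 FPKM in pituitary and 0.15 FPKM in brain. Proenkephalin (penk), the opioid precursor, had 263 to 1126 FPKM in pituitary (median 532.6) and 62.3 to 85.8 FPKM in brain (median 72.5). That was an 8.22-fold difference with no overlap. Gastrin-releasing peptide (grp) had 31.8 to 57.0 FPKM in pituitary (median 47.7) and 0.42 to 1.46 FPKM in brain (median 0.685), 66.7-fold higher. Neuromedin S (nms) had medians of 15.0 FPKM in pituitary and 0.18 FPKM in brain, and nmur1a, a gene named as a neuromedin U receptor, 51.1 and 0.4 FPKM. The agouti-related protein gene agrp encodes an antagonist at melanocortin receptors. It was called, at 9.31-fold, but its pools overlapped: the male pituitaries had 2.34 to 7.87 FPKM, against 63.8 to 89.9 FPKM in female pituitaries and 1.53 to 5.67 FPKM in brain.

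**Figure D3:**
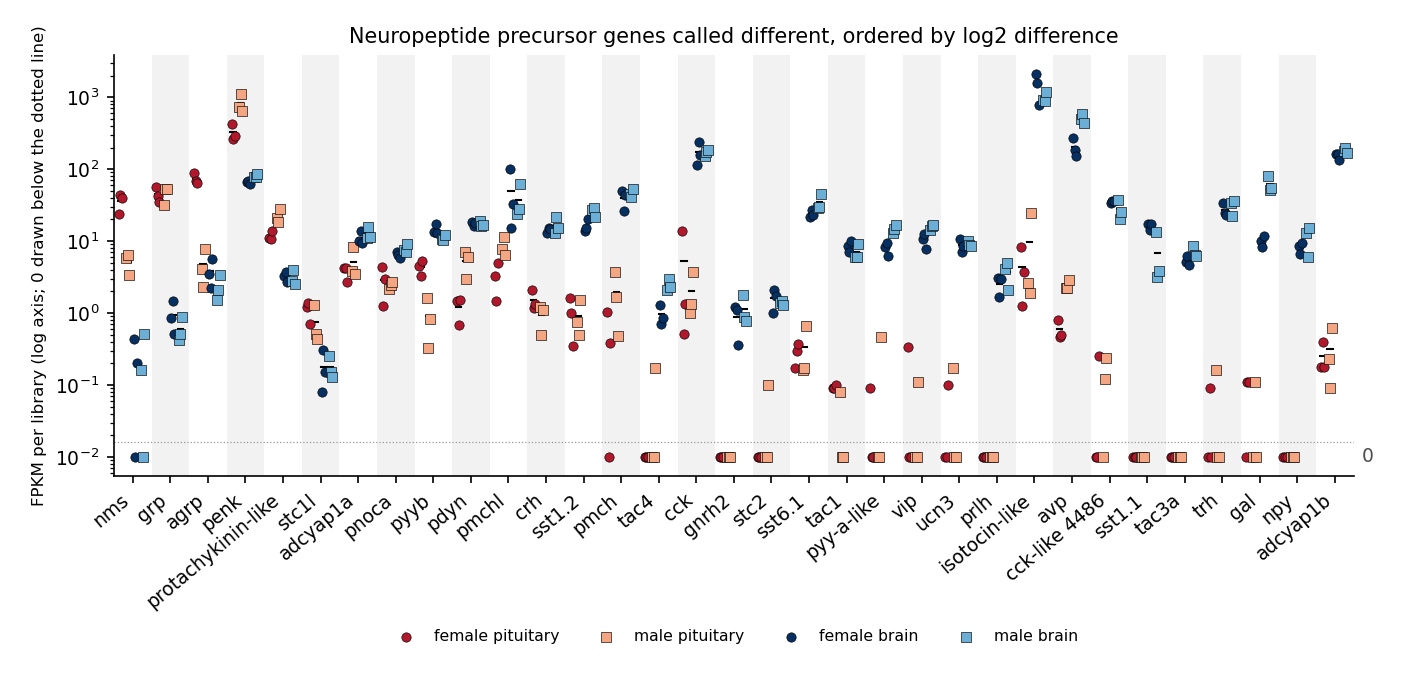
Levels of the neuropeptide list genes called different, in FPKM on a log axis, 1 point per pool, ordered from the largest to the smallest log2 difference (isotocin-like is LOC103397660, protachykinin-like LOC103388335, cck-like LOC103394486 and pyy-a-like LOC103393602). The 6 genes at the left are higher in pituitary, and 27 are higher in brain, many with pituitary pools at 0.

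Most neuron genes were higher in brain. Of 107 listed, 92 were tested, 7 were higher in pituitary, 77 in brain and 8 were not called. The median log2 difference was -3.23, and 3 marked pituitary while 55 marked brain. The summed level of the list was 852 to 1030 FPKM in pituitary pools and 5160 to 6160 FPKM in brain pools. The neurofilament gene neff2 had 1.5 to 4.33 FPKM in pituitary (median 2.91) and 639.1 to 971.7 FPKM in brain (median 797.6), a log2 difference of -7.86 (SE 0.13, edgeR adjusted p = 5.66e-16).

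The genes named here for excitatory and inhibitory transmission were low in pituitary. The vesicular glutamate transporter slc17a6, which loads the main excitatory transmitter, had medians of 1.01 FPKM in pituitary and 94.6 FPKM in brain (85.8-fold). For inhibition, glutamate decarboxylase gad2 had 0.545 and 73.7 FPKM (122.4-fold) and the vesicular transporter slc32a1 0.03 and 32.6 FPKM (678-fold). The kinase camk2a, abundant at excitatory synapses, had 2.08 and 219.8 FPKM (81.9-fold). The GABA receptor subunit gabra6, a marker of cerebellar granule cells in mammals, had 0.24 and 127.6 FPKM, with female pituitary 3 highest among pituitary pools at 2.45 FPKM.

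For 3 further neuron genes the difference was smaller in size than the median of the list. The synaptotagmin gene syt1, the calcium sensor of release, was 1.87-fold higher in pituitary, with medians of 133.8 and 82.1 FPKM. The SNAP-25-like gene LOC103379309 was 1.72-fold higher in brain, with 140.7 and 281.6 FPKM. The tubulin-binding gene stmn2a was 7.81-fold higher in brain, with 52.2 and 461.2 FPKM.

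Several of the 15 genes named for the largest differences on the side of the brain had next to no pituitary counts. Parvalbumin (pvalb), a calcium buffer of fast neurons and muscle, had 2 counts over all 6 pituitary pools and 119.7 to 179.8 FPKM in brain (median 139). The neurogenic differentiation factor 2-like gene LOC103381479 had 3 counts there and a brain median of 70.2 FPKM. The homeobox gene barhl1 and the glutamate transporter LOC103396488 had none, with brain medians of 10.1 and 14.9 FPKM, and were at least 319-fold and 297-fold lower in pituitary. The cerebellin-like synapse organizer cbln12 had medians of 0.28 and 202.1 FPKM. For the C-type natriuretic peptide nppcl they were 0.175 and 116.7 FPKM, and for the small heat shock protein cryab 0.265 and 228.5 FPKM.

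Receptors and channels split between the organs. Of 210 listed, 159 were tested, 46 were higher in pituitary, 93 in brain and 20 were not called, with a median log2 difference of -1.39; 15 marked pituitary and 56 marked brain. In pituitary the sodium channel subunit scn3b had 177.4 to 261.3 FPKM (median 224.7) and in brain 25.9 to 36.3 FPKM (median 30.6), an 8.37-fold difference. Its relative scn1bb was 6.10-fold higher in brain, with medians of 21 and 144.5 FPKM.

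Other channel genes higher in pituitary included the nicotinic receptor subunit chrnb4 (18.8-fold, medians 46.9 and 2.84 FPKM), the T-type calcium channel cacna1h (8.15-fold, 18.4 and 2.46 FPKM) and the potassium channel kcnh6 (5.74-fold, 43.5 and 8.92 FPKM). On the side of the brain the potassium channel LOC103386550 had medians of 0.07 and 26.9 FPKM and the metabotropic glutamate receptor LOC103380242 0.01 and 12.7 FPKM.

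Most glial genes tested were higher in brain. Of 25 astroglia and radial glia genes, 18 were tested, 2 were higher in pituitary, 15 in brain and 1 was not called (median log2 difference -2.85), and the summed level was 721 to 1010 FPKM in pituitary pools and 6040 to 6680 FPKM in brain pools. The calcium-binding gene s100b had 2.3 to 8.24 FPKM in pituitary (median 3.98) and 2138 to 2905 FPKM in brain (median 2529), a log2 difference of -8.97 (SE 0.28, edgeR adjusted p = 1.05e-11). The glutamate transporter slc1a2 had medians of 1.83 and 549.6 FPKM and the filament gene gfap 0.38 and 195.2 FPKM.

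Some other glial genes were also abundant in the gland. Glutamine synthetase (glul) had medians of 572 FPKM in pituitary and 1168 FPKM in brain, 1.74-fold higher in brain, the brain fatty acid-binding protein fabp7 had 151 and 938 FPKM, and the gap junction gene gja1 37.2 and 457.1 FPKM. The water channel aqp4, a marker of astrocyte endfeet in mammals, went against its list: it had 7.68 to 19.6 FPKM in pituitary (median 12.1) and 0 to 0.16 FPKM in brain (median 0.105), 136.6-fold higher in pituitary.

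Myelin genes had the lowest median of the 19 lists. Of 23 listed, 19 were tested, 3 were higher in pituitary, 15 in brain and 1 was not called, with a median log2 difference of -6.23, and 12 marked brain. The myelin basic protein gene LOC103388795 had 2.58 to 8.45 FPKM in pituitary (median 4.49) and 3039 to 3870 FPKM in brain (median 3343), a log2 difference of -9.33 (SE 0.21, edgeR adjusted p = 5.87e-14). The proteolipid gene plp1b had 0.61 to 4.7 FPKM in pituitary, highest in male pituitary 3, and 883.5 to 1418 FPKM in brain. Myelin protein P0 (mpz), a component of central myelin in fish, had medians of 0.715 and 527 FPKM, mag 0.475 and 217.8 FPKM and the lineage factor olig2 0.095 and 39.1 FPKM. The 2 myelin basic protein genes LOC103388795 and mbpa may share reads.

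The brain gene with the highest level among those named was epd, ependymin, a secreted brain glycoprotein of bony fish. It had 56.0 to 140.7 FPKM in pituitary (median 109.9) and 10810 to 16960 FPKM in brain (median 14070), a log2 difference of -6.82 (SE 0.25, edgeR adjusted p = 5.07e-11). A toxin-binding lipocalin-like gene, LOC103398126, had medians of 230.5 and 2498 FPKM, the CD59-like gene LOC103389817, a complement inhibitor by name, 2.06 and 1698 FPKM, and brain creatine kinase (ckb) 89.6 and 1553 FPKM. All 3 were called and had no overlap.

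Some plasma protein genes known from the liver were abundant in brain. Apolipoprotein A-I (apoa1) had 31.4 to 134.5 FPKM in pituitary (median 43.7) and 1080 to 1961 FPKM in brain (median 1431), 21.8-fold higher in brain. Transferrin (tfa) had medians of 38.3 and 1049 FPKM and the fetuin-like gene ahsg2 7.86 and 507.5 FPKM. Female pituitary 3, the library with the highest summed hepatocyte level in pituitary, had 134.5 FPKM of apoa1 and 134.1 FPKM of tfa. Both genes are members of that list and so part of its sum. Over the whole hepatocyte list, 20 of 24 genes were tested, 3 were higher in pituitary, 5 in brain and 12 were not called, with a median log2 difference of 0.35. Antithrombin (serpinc1) was among the 3, with medians of 20.01 FPKM in pituitary and 1.15 FPKM in brain. Apolipoprotein Eb (apoeb), a lipid carrier that glia also make in mammals, was 11.7-fold higher in brain.

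Immune and blood genes were mostly higher in brain. Of 24 listed, 17 were tested, 3 were higher in pituitary and 14 in brain, with a median log2 difference of -1.42 and a summed level of 901 to 1050 FPKM in pituitary pools and 3050 to 4560 FPKM in brain pools. The class II chaperone cd74 had medians of 395.7 and 1995 FPKM (4.30-fold higher in brain), lysozyme (lyz) 71.3 and 333.3 FPKM, and the myeloid factor spi1 3.03 and 36.8 FPKM. Of the hemoglobin genes, hbae5 was 2.45-fold and LOC103382312 2.48-fold higher in brain, though globin copies may share reads.

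Vessel genes were more often higher in brain. Of 27 endothelial and mural genes, 25 were tested, 3 were higher in pituitary, 17 in brain and 5 were not called (median log2 difference -0.72), and the summed level was 291 to 479 FPKM in pituitary pools and 526 to 749 FPKM in brain pools. The caveolar diaphragm gene plvap, a marker of fenestrated capillaries in mammals, had 28.8 to 48.8 FPKM in pituitary (median 35.3) and 1.69 to 2.57 FPKM in brain (median 2.10), 19.5-fold higher in pituitary. The tight junction gene cldn5, a marker of the blood-brain barrier in mammals, had 2.7 to 4.82 FPKM in pituitary (median 3.19) and 41.6 to 114.1 FPKM in brain (median 68.5), 17.0-fold higher in brain. The adhesion gene pecam1a was 3.84-fold higher in pituitary and the growth factor receptor kdr 2.80-fold higher in brain. The glucose transporter slc2a1 was 1.17-fold higher in brain with overlapping pools, and that call ended in 13 of the other fits. These include the least difference of 2-fold, which a difference of that size could not pass. Another gene of that name, LOC103393778, was 1.35-fold higher in brain without overlap, at 83.4 to 99.6 FPKM against 44.5 to 79.0 FPKM in pituitary. Its call ended in males alone and with the least difference of 2-fold.

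Matrix genes had a median near that of all genes. Of 45 listed, 37 were tested, 13 were higher in pituitary, 15 in brain and 9 were not called. These shares were near those over all tested genes, 35.9% higher in pituitary and 38.1% in brain. The median log2 difference was -0.02, against -0.01 over all genes. The basement membrane laminins lama5 and lamb3 were 13.6-fold and 9.77-fold higher in pituitary, with medians of 15.6 and 18.1 FPKM there and 1.12 and 2.03 FPKM in brain. The calcium-binding matrix protein sparc was 1.98-fold higher in pituitary (medians 241.1 and 126.6 FPKM), and the decorin-like gene LOC103382665 was 1.67-fold higher in brain.

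**Figure D4:**
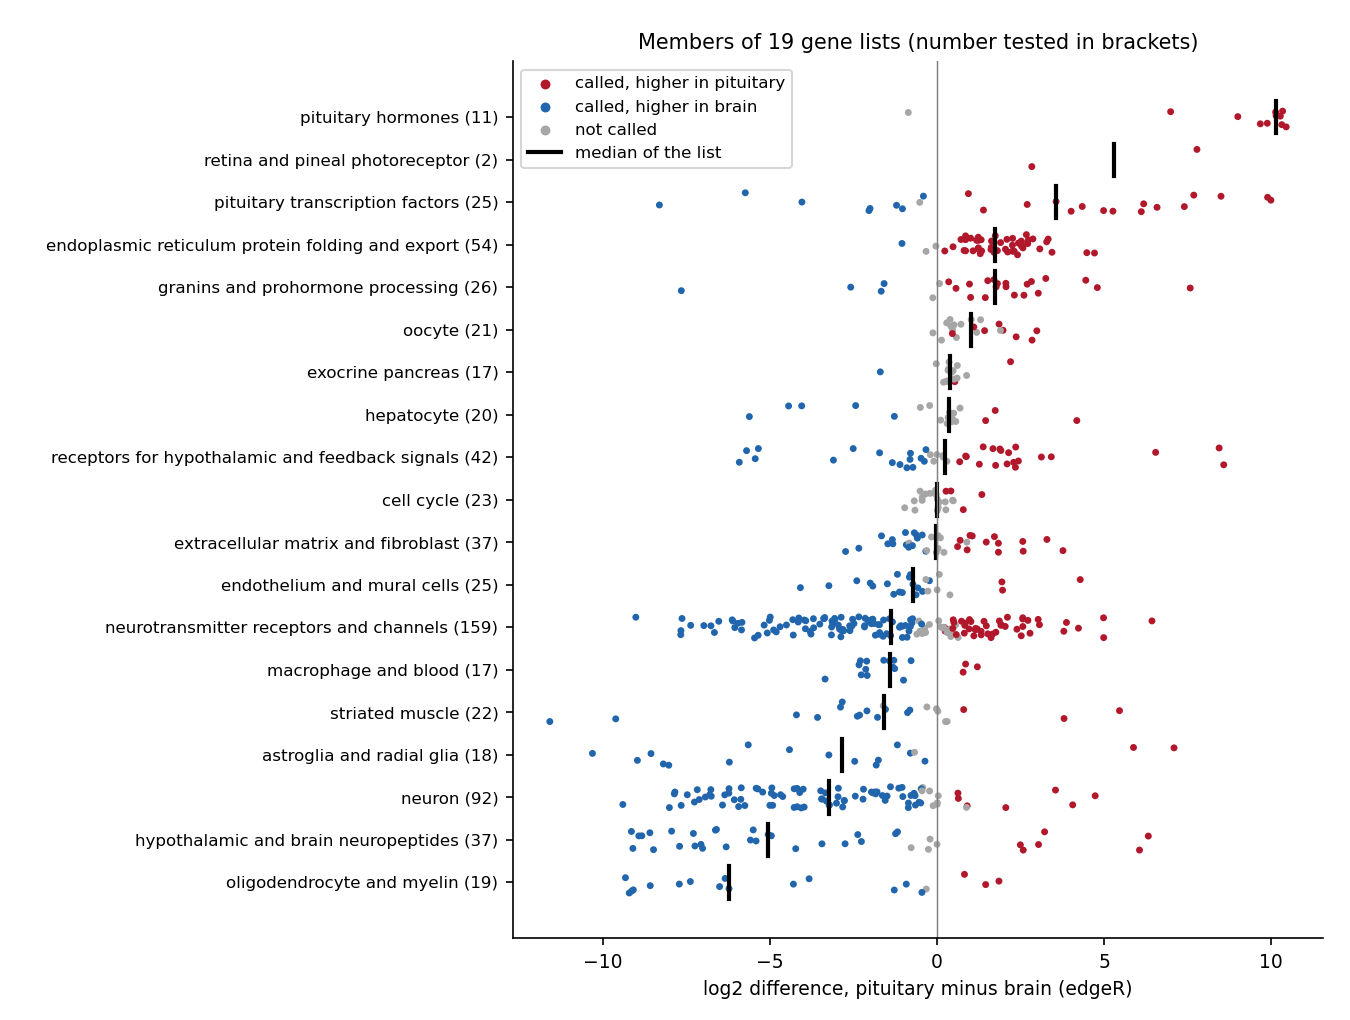
The log2 difference, pituitary minus brain, of every tested member of 19 gene lists, coloured by its edgeR call, with the median of each list as a bar. Medians run from 10.14 for pituitary hormones to -6.23 for oligodendrocyte and myelin genes.

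Lists for organs outside the comparison were counted as well, and the source of the RNA of their members was not tested. Of 23 retina and pineal genes, 2 were tested and both were higher in pituitary: the cone transducin gene gnat2 had 40.7 to 57.7 FPKM in pituitary (median 49.9) and 0.1 to 0.37 FPKM in brain (median 0.245), 219.7-fold higher, and rcvrn2 had medians of 3.15 and 0.385 FPKM. In the oocyte list 21 of 32 genes were tested, 8 were higher in pituitary and 13 were not called, and without female pituitary 3, male pituitary 3 and male brain 1 there were 5 higher in pituitary and 1 in brain. The egg envelope gene zpcx had 11.1 to 39.7 FPKM in pituitary and 1.86 to 24.8 FPKM in brain, where male brain 1 was the highest, and its call ended in males alone.

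In the exocrine pancreas list 17 of 30 were tested, 2 were higher in pituitary, 1 in brain and 14 were not called, with 1 to 5 higher in pituitary when single libraries were left out. Trypsin (trypsase) had medians of 19.6 FPKM in pituitary and 20.5 FPKM in brain. In the striated muscle list 22 of 58 were tested, 3 were higher in pituitary and 13 in brain, led by the parvalbumins pvalb and pvalb6. The summed level was 61.4 to 112 FPKM in pituitary pools and 390 to 468 FPKM in brain pools. Most of the brain sum came from pvalb and pvalb6, with brain means of 142.8 and 148.1 FPKM. Of the 22, 2 marked pituitary and 6 marked brain, and the source of their RNA was not tested. Of 24 cell cycle genes, 23 were tested, 4 were higher in pituitary and 19 were not called, but without male pituitary 3, or without the 3 libraries together, 10 were higher in brain. The replication clamp pcna had 24.6 to 146.4 FPKM in pituitary and 32.2 to 77.7 FPKM in brain (log2 difference 0.26, SE 0.22, edgeR adjusted p = 0.296).

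Liver, ovary and testis, which the comparison did not use, gave a further view of the marks. Of the 875 genes that mark pituitary, 599 (68.5%) had a higher mean level in pituitary than in liver, ovary and testis as well, 349 were over 4-fold above each of them, and 206 were under 1 FPKM in all 3. Of the 1878 that mark brain, 1614 (85.9%) were above liver, ovary and testis, 1201 over 4-fold above each, and 803 were under 1 FPKM in all 3. Where another organ was higher than pituitary, it was testis for 120 genes, ovary for 109 and liver for 47. These genes were chosen for a high level in pituitary or brain, and the same shares over all tested genes were not computed. The shares therefore do not measure how particular the marks are to an organ. No test was run on these levels.

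The tissue difference was then compared between females and males. Fitted in each sex alone, 11585 genes were called in females and 11144 in males. Of the 9419 called in both, 9348 (99.2%) had the same direction and 71 the opposite one. Among the 16159 genes tested in both sexes, 83.6% of the female calls were also called in males and 85.8% of the male calls in females. A term for sex by tissue was called for 1340 genes (7.72%), 1033 of them with the same direction in both sexes. In the fit with that term, which held both sexes, 88 of all tested genes (0.507%) were called in each sex with opposite signs. The 71 above came from the fits of each sex alone. The number with a called term depended on single libraries, at 814 without female brain 2, 811 without female brain 3 and 878 without male brain 1, and it was 448 when all 24 libraries were fitted. Of the marks, 76 of pituitary and 129 of brain had a called term.

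**Figure D5:**
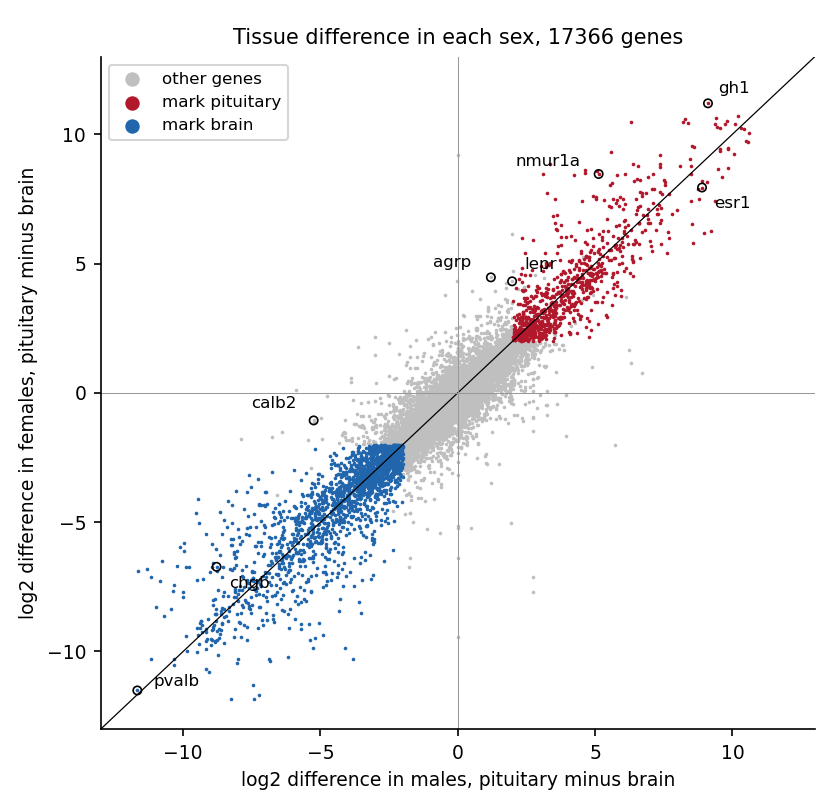
The log2 difference, pituitary minus brain, in females against that in males, 1 point per gene for 17366 genes, with genes that mark pituitary or brain in both sexes coloured and the line of equal difference drawn. Marks lie in the upper right and lower left corners by their definition, and gh1 and nmur1a lie above the line.

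The 6 genes named for the largest called terms were citb, calb2, LOC103398003, gnai2, LOC103386020 and nmur1a. The receptor gene nmur1a had 90.8, 105.7 and 81.2 FPKM in female pituitaries and 21.0, 17.0 and 17.1 FPKM in male pituitaries, against 0.14 to 0.85 FPKM in brain. Its log2 difference was 8.46 in females and 5.13 in males (difference 3.34, edgeR adjusted p = 0.00125). The calcium buffer calretinin (calb2) had 55.0, 12.4 and 19.4 FPKM in female pituitaries and 2.61, 1.3 and 2.25 FPKM in male pituitaries, against 61.4 to 98.1 FPKM in brain. Its log2 difference was -1.07 in females, where it was not called in that sex alone, and -5.25 in males. Neither its tissue call nor its sex by tissue call held without female pituitary 3, male pituitary 3 and male brain 1 (edgeR adjusted p = 0.0685 and 0.0619).

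The G protein gene gnai2 and the kinase-like gene citb were also lower against brain in males than in females, with gnai2 at 7.06, 2.03 and 3.01 FPKM in female pituitaries and 0.44, 0.16 and 0.22 FPKM in male pituitaries. For citb the levels were 0.09, 0.18 and 0.13 FPKM in female pituitaries and 0, 0 and 0.02 FPKM in male pituitaries, against 17.3 to 31.9 FPKM in brain, so the fitted difference in males rests on next to no counts. The actin-like gene LOC103398003, on chromosome Z, had log2 differences of 8.62 in females and 4.65 in males, and its sex by tissue call also ended without those 3 libraries (edgeR adjusted p = 0.0619). The nuclear receptor gene LOC103386020, an NR4A member induced early by stimulation, had 5.06 to 34.1 FPKM in pituitary and 3.84 to 37.1 FPKM in brain and no called tissue difference over both sexes. In females its log2 difference was 2.03 and in males -1.51, and the sex by tissue call (edgeR adjusted p = 0.0232) ended with a replicate block and without female brain 3, female pituitary 2 or male pituitary 1.

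The leptin receptor lepr and agrp had called terms as well, with log2 differences of 4.31 in females and 1.98 in males for lepr and 4.47 and 1.204 for agrp. The stress sensor ern1 had 3.28 in females and 1.34 in males. The factor sox3 had -2.66 in females and -1.46 in males, and the estrogen receptor esr1 7.94 in females and 8.89 in males, both with called terms.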

How the data were processed

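RNA sequencing libraries of 6 pituitary pools and 6 brain pools were compared. The deposited table gives FPKM and an estimated count for 22773 entries in each of 24 libraries, per the file headers. Bowtie2 and TopHat2 2.0.3.12 are named per the submitters' processing notes, while the quantifier, genome build, strand setting and filters are not given in the sources used here. Deposited estimated counts were whole numbers for 97.1 to 98.4% of values and were rounded. NCBI gene identifiers stood on 20373 entries, and 19502 of them matched a RefSeq table of assembly Cse_v1.0, which gave 3548 symbols. No sequences were used.

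The 17366 genes that reached 1 FPKM in 3 or more of the 12 libraries were tested, and 5407 entries were not. The third highest value was 1 to 1.1 FPKM in 183 tested genes and 0.9 to 1 FPKM in 201 untested ones. The test was edgeR 4.0.16 (R 4.3.3) quasi-likelihood with TMM scaling and a robust fit, tissue and sex as terms, and Benjamini-Hochberg adjustment over all tested genes. A further fit held a sex by tissue term. Standard errors are the log2 difference over the root of the F statistic. Tables and plots were made with Python 3.11.15, pandas 2.3.3 and matplotlib 3.10.9. On simulated counts for the same 17366 genes, the test of pituitary against brain recovered 79% of 2-fold and 99% of 4-fold changes and called 6 unchanged genes. In that simulation only a small share of genes changed, in equal numbers up and down, and no sex effect was set. In the data 74.0% of genes were called, many with larger folds, so these rates check the code and do not describe this comparison. Levels are the authors' FPKM.

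The members, gene lists and tests were chosen with earlier results of these data known. Named genes are, in each direction, the 15 largest differences among marks with a named product and a mean of at least 10 FPKM, and the 15 most abundant called genes at least 4-fold apart. They also include the 6 largest sex by tissue terms, and members of the lists: all hormones, pituitary factors and processing genes, and the 4 most abundant of other lists. Other genes named from the lists, such as grp, adcyap1b, gfap, aqp4, plvap and dnajc3, were chosen after their values were seen, and a few list members are counted but not reported here by name. A level of 0 in one tissue was bounded with 3 counts over its 6 pools. The 27 alternatives covered scaling, filters, DESeq2 1.42.0, limma 3.58.1 on log2(FPKM + 0.1) and log2(FPKM + 1), a replicate block, all 24 libraries, each sex alone, a least difference of 2-fold, a fit without the robust option, and left-out libraries. Estimated counts per library limit low levels, and all errors cover the spread between pools only.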

Additional observations from a re-analysis of the deposited data

Results flagged for a closer look

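Among 390 checks for a pool far from the other 5 of its tissue, 31 stood apart. The cutoff would give about 1 in 20 for independent checks of pools from a single normal group. Those conditions do not hold here, since each tissue mixes females and males and list sums were checked beside their own members. The number expected by chance is therefore not known. Female pituitary 3 was the highest pituitary pool for the liver genes apoa1 (134.48 FPKM) and tfa (134.12 FPKM), the trypsin gene trypsase (48.63 FPKM), the decorin-like LOC103382665 (50.73 FPKM), the neuron gene gabra6 (2.45 FPKM) and the summed hepatocyte list (460 FPKM). Female pituitary 1 was the highest for calb2 (54.99 FPKM), cck (13.79 FPKM) and nefma (8.14 FPKM). Male pituitary 3 was the highest for the isotocin gene LOC103397660 (24.34 FPKM), plp1b (4.7 FPKM), LOC103392947 (146.1 FPKM) and the summed cell cycle list (325 FPKM), and male pituitary 2 the lowest for prl (3551.94 FPKM).

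Male brain 2 was the highest brain pool for the hormone genes smtla (16.76 FPKM), cga (27.62 FPKM) and lhb (39.19 FPKM) and for the summed hormone list (204 FPKM). It was also the highest for isl1a (4.47 FPKM) and crh (21.64 FPKM) and the lowest for gfap (100.21 FPKM). Male brain 1 was the highest for the egg envelope and oocyte genes zpcx (24.8 FPKM), LOC103377641 (8.23 FPKM) and LOC103392929 (34.83 FPKM), the summed oocyte list (187 FPKM), the summed cell cycle list (215 FPKM) and LOC103393778 (99.64 FPKM). Male brain 3 was the highest for pvalb6 (200.01 FPKM), female brain 1 for gnai2 (19.2 FPKM) and trypsase (29.43 FPKM), and female brain 2 for LOC103386620 (4.51 FPKM).

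For 31 named genes the difference between pituitary and brain itself differed between females and males by the edgeR sex by tissue term, adjusted over all genes. Values are the log2 difference in females minus that in males. Among hormone, receptor and signal genes they were 2.09 for gh1, 3.34 for nmur1a, 3.26 for agrp, 2.34 for lepr, -0.95 for esr1, -0.61 for drd2, -0.84 for crhr1 and -0.88 for LOC103397625. Granule and folding genes had 0.42 for scg3, 0.95 for chga, 0.83 for scg2, -0.90 for pcsk2, -0.57 for LOC103389235, -0.64 for nucb2, 0.70 for p4hb and 1.94 for ern1. Factors and vessel or matrix genes had -0.71 for eya1, -1.202 for sox3, 1.096 for cldn5, -0.58 for kdr and -1.15 for lama5. Neural and other genes had -0.99 for epd, -0.72 for ckb, -0.78 for LOC103379309, 0.87 for scn1bb, -1.01 for chrnb4, 4.18 for calb2, 3.65 for gnai2, 3.98 for LOC103398003 and 3.54 for LOC103386020. The fitted 4.76 for citb rests on male pituitary levels of 0, 0 and 0.02 FPKM. In LOC103386020 the signs in the sexes were opposite, and for the other 30 they were the same.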

How the results depend on the processing

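The tissue result was stable in number: leaving out each library in turn gave 12416 to 12757 called genes, 860 to 894 pituitary marks and 1853 to 1887 brain marks. Counts over 1.5 times away came from 2 alternatives: a least difference of 2-fold left 5286 called genes (1966 higher in pituitary, 3320 in brain), and limma on log2(FPKM + 1) left 453 pituitary marks. The count of sex by tissue terms was less stable, at 811 to 1919 over left-out libraries, 448 with all 24 libraries and 46 with a least difference of 2-fold. Of 192 named genes that were called, 164 kept direction and call under every alternative that tested them. Over all 203 named genes 5363 of 5452 values were unchanged in direction and call, 59 lost the call, 9 gained it and 21 turned sign. The values that turned sign all belong to genes with no called tissue difference. They were, for LOC103386020, -1.51 in males alone, -0.000 without female brain 1, -0.192 without female brain 2, -0.076 without female brain 3 and -0.002 without female pituitary 1, with a highest value of 0.652 over left-out libraries. For egr1 the value was 0.34 in females alone. For furin they were -0.17 and -0.15 with limma on log2(FPKM + 0.1) and log2(FPKM + 1), -0.12 with no scaling beyond the library total and -0.011 without female pituitary 1, with a highest value of 0.117 over left-out libraries. For LOC103392929 they were -0.56 in males alone and -0.25 without female pituitary 3, with a highest value of 1.655 over left-out libraries. Without female pituitary 3, male pituitary 3 and male brain 1 together they were -0.054 for trypsase, -0.034 for LOC103378813 and -0.011 for pcna, which had -0.12 in females alone. For rrm2 they were 0.048 in males alone and 0.024, 0.014, 0.043 and 0.053 without female pituitary 1, female pituitary 2, male brain 1 and male pituitary 2, with a lowest value of -0.188 over left-out libraries. The cause was not tested. Same-numbered pituitary and brain pools had correlated deviations of 0.179, 0.0652 and 0.162 in females and -0.00881, 0.196 and 0.0247 in males. Every female pituitary pool and male pituitary 2 correlated most with the brain pool of its own number. Male pituitary 1 correlated most with male brain 2 (0.0207) and male pituitary 3 with male brain 1 (0.164). Whether a number marks the same fish is not stated, and the numbers were not taken as pairs. With a replicate block 12700 genes were called, 97.6% of the calls were kept and 1607 sex by tissue terms were called. Low counts limit the differences of genes near 0 in one tissue.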

Other observations

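The sex chromosomes held genes of both tissues. On chromosome Z 728 genes were tested, 287 (39.4%) were higher in pituitary and 247 (33.9%) in brain, against 36.6% and 38.4% of the 15159 autosomal genes. Z genes included 42 that mark pituitary, LOC103397625 and the kinase-like LOC103397927 among them, and 64 that mark brain, among them the isotocin gene LOC103397660, the vasotocin gene avp and cldn5. Among the 15159 autosomal genes 739 marked pituitary and 1625 marked brain, and over all tested genes the shares were 5.04% and 10.8%. On chromosome W 179 genes were tested, 34 (19%) were higher in pituitary and 43 (24.0%) in brain, and 4 marked brain. A mark needs a 4-fold difference in each sex, so a W gene with reads in females only could not be a mark. The tissue call of such a gene would rest on the female libraries alone, so the W shares are not comparable with the autosomal ones. These counts are descriptive, no test was run on them, and W and Z copies of a gene may share reads.

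The most abundant entry in brain by count, XLOC_024441, named as mitochondrial NADH dehydrogenase subunit 5, had 1758 to 2825 FPKM in pituitary pools and 5684 to 6653 FPKM in brain pools. It was 2.18-fold higher in brain (log2 difference -1.13, SE 0.11, edgeR adjusted p = 9.22e-08) with no overlap.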
